A study of Mus musculus with 8 samples.

Results

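The genes described here are 9 genes of glucose uptake and glucose sensing, read in alphaTC1.9, a mouse cell line of glucagon-producing pancreatic alpha cells that originated in a tumour. They were chosen by gene symbol for their roles, with no threshold on their values: the glucose transporter genes Slc2a1 and Slc2a2, the hexokinase genes Hk1 and Hk2, the glucose-6-phosphatase gene G6pc2, the pyruvate dehydrogenase kinase gene Pdk1, the sulfonylurea receptor gene Abcc8, and the glucose-responsive regulators Mlxipl and Txnip. Each of the 9 genes had 1 probe set among the 22142 tested on the Clariom S array, of which 19527 carried a gene symbol. The study compared 4 arrays of cells in which a small interfering RNA had lowered insulin-degrading enzyme (IDE-KD) with 4 arrays of control cells of the same line. Per the labels' protocols, all cells grew in medium with 16 mM glucose and 10% serum and received no other treatment. The labels give neither the kind of control (untouched cells or a non-targeting RNA) nor the time after knockdown, and they call the replicates biological without saying whether each came from a separate culture or knockdown, so p-values here rest on array-to-array spread that may be partly technical. Values are log2 expression, where a difference of 1 is 2-fold.

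As background, glucose enters islet cells through facilitative transporters of the GLUT family and is trapped by hexokinases as glucose-6-phosphate, a step that glucose-6-phosphatase runs backwards. Its breakdown yields pyruvate, whose entry into the mitochondrial citrate cycle is braked by pyruvate dehydrogenase kinases, and the ATP made then closes the ATP-sensitive potassium channel, of which the sulfonylurea receptor is a subunit. Glucose also acts on transcription through ChREBP, the product of Mlxipl, and its relative MondoA, which bind paired E-boxes called carbohydrate response elements together with the partner Mlx, and Txnip is a known target of both.

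The promoters of Txnip and Mlxipl are shown because these 2 genes form the regulator and target pair of that glucose response. The RefSeq promoter table (build GRCm38.p6) held 12 windows for 8 of the 9 genes, each running from 250 bases before to 50 bases after an annotated start. Both strands were searched for the E-box CACGTG and for 1 carbohydrate response element pattern, the direct repeat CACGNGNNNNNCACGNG, and matches stand in capitals. Other arrangements of paired E-boxes were not searched. The Txnip window, chr3:96557707-96558006 on the plus strand, had 1 match to the paired pattern, whose first base lies 85 bases before the start. That pattern was in 16 of all 32851 windows of the table, 0.0487%. Of the 2 Mlxipl windows, whose starts lie 17 kb apart, the upstream one at chr5:135089640-135089939 (plus strand) held 1 E-box, whose first base lies 98 bases before its start, and the downstream one at chr5:135106641-135106940 (plus strand) held a match to neither. The E-box alone was in 7.15% of all windows. As background, Mlxipl has an upstream alternative promoter that yields a shorter form called ChREBP-beta. The array gave 1 value for the gene, and the sources used here do not say which forms its probes read. A match describes the letters of a window and is no measurement of binding in these cells.
Txnip: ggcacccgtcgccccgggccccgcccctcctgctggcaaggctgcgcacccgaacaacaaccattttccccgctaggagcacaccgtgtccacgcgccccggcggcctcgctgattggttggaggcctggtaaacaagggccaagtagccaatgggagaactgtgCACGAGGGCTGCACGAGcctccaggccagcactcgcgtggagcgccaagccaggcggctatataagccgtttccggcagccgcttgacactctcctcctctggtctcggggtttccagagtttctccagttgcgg
Mlxipl upstream: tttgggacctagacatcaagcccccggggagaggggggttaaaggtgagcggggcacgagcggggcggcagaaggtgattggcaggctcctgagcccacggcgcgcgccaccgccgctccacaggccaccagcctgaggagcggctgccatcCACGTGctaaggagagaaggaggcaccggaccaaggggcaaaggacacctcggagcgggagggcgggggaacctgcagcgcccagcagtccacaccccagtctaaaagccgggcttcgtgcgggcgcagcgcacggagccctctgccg
Mlxipl downstream: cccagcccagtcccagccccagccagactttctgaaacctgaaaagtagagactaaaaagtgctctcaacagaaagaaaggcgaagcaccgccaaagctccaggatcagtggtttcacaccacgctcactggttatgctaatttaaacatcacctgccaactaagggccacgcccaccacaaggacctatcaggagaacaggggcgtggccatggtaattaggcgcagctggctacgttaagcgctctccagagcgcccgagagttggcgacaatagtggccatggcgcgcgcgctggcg

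In the deposited values the arrays differed little as a whole. RMA, named in the processing notes, in its usual form equalises the arrays' distributions, so like medians do not show that total RNA was alike. The median of the tested probe sets was 5.10 to 5.17 on every array, and the correlation between arrays was 0.984 to 0.993 within a group and 0.984 to 0.991 between groups. Ide, the targeted gene, read 7.91, 8.14, 7.92 and 8.05 in IDE-KD cells, against 8.66, 8.62, 8.72 and 8.48 in control cells, without overlap. The log2 difference of -0.62 (SE 0.12) is 1.53-fold lower and ranked 3 of 22142 by p in limma (unadjusted p 0.000164), but its adjusted p was 1.00. Its exact two-sided permutation p of 0.0286 is the smallest that 4 against 4 arrays can give, and the difference was -0.52 without IDE-KD replicates 1 and 3. The median array control row stood at 4.52 and is used here to mark a low signal. All 6 measured alpha cell markers lay above it, with Gcg, the glucagon gene, at 12.06 in both IDE-KD and control cells, as did 3 of 7 beta cell markers, 2 of 3 delta cell, 0 of 1 PP cell, 2 of 5 fibroblast, 0 of 2 immune, 0 of 3 endothelial and 1 of 4 exocrine markers. Between the groups, 3 of the 31 measured markers had an unadjusted p under 0.05 and 0 an adjusted one, and their part in the results below was not tested. Arrays 1 and 3 of the IDE-KD group had the lowest means of the exon control rows, 6.95 and 6.92, while the remaining 6 arrays had 7.05 to 7.13, so the 9 genes, the gene pairs and the list medians are also given without them. Where a level differs between bulk samples, fewer cells of a type and less RNA per cell cannot be told apart.

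None of the 9 genes differed between IDE-KD and control cells past the threshold of an adjusted p under 0.05 in limma, and the adjusted p was 1.00 for each. Over all 22142 probe sets the same test called 0, which is 0% (1017 at an unadjusted p under 0.05). The median log2 difference of the 9 genes, of which 4 were higher and 5 lower, was -0.07, against 0.0074 over all tested probe sets. At an unadjusted p under 0.05 there were 2 of 9, Mlxipl on the higher and Hk2 on the lower side, against a background of 4.59% of all probe sets (2.69% higher and 1.91% lower). In 0 of 9 genes did the groups stand apart without overlap, as they did at 2.80% of all probe sets. With 4 arrays a group the precision is limited. The 95% confidence intervals left out a 2-fold change for all 9 genes, as for 22074 of all 22142 probe sets. They left out a 1.5-fold change for 7, all but Mlxipl and Pdk1, as for 83.6% of all probe sets. Slc2a2, 1 of the 7, was at a low signal, below the median array control row, so its interval describes array values only.

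**Figure D1:**
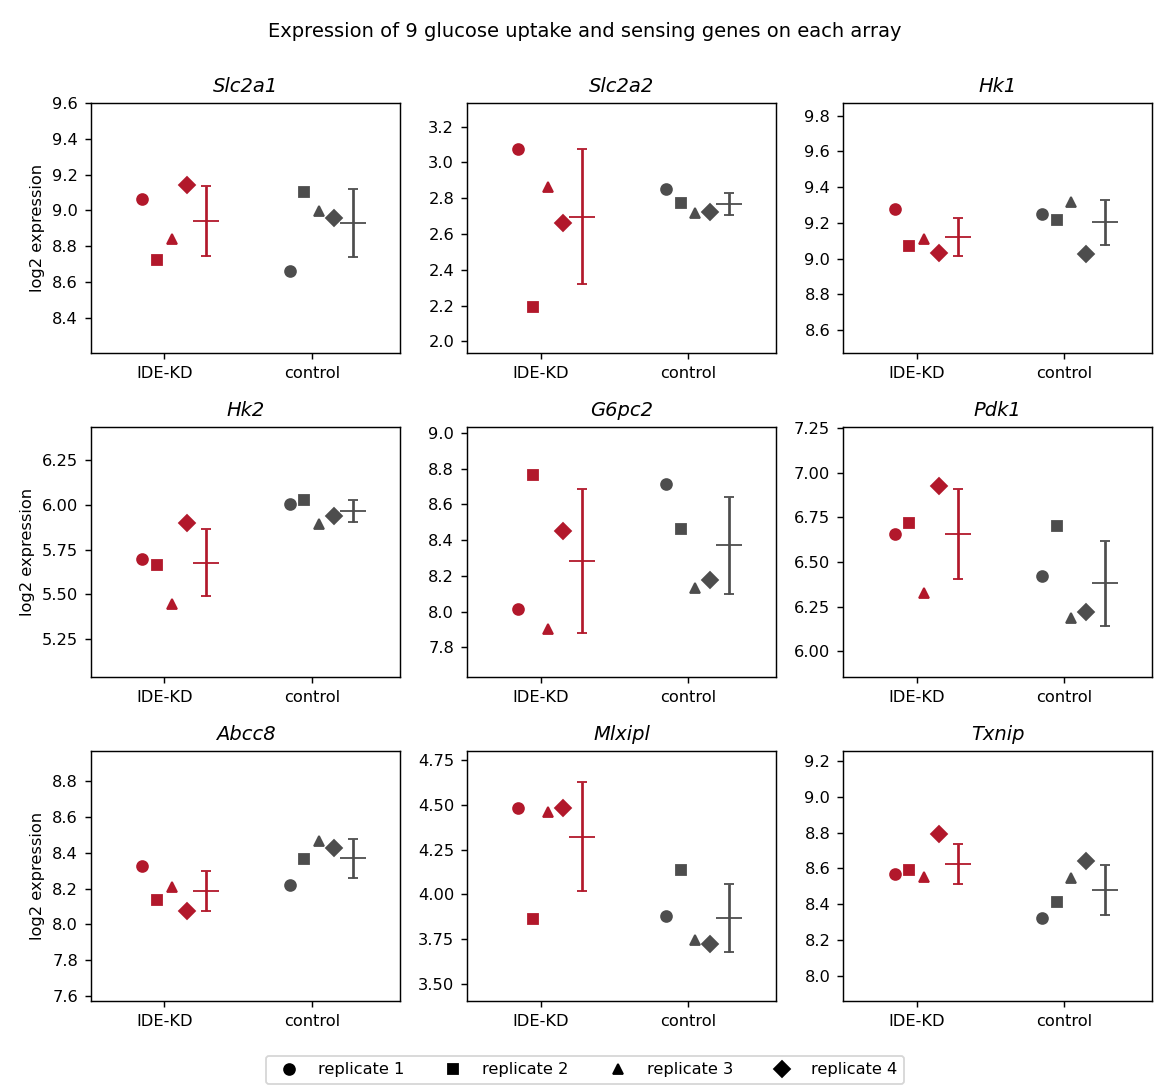
Log2 expression of the 9 genes on each of the 8 arrays, with IDE-KD arrays in red and control arrays in grey, marker shapes for the replicate number, and bars for the mean and SD (n = 4). Every vertical axis spans the same range in log2 units. Mlxipl was high on 3 of 4 IDE-KD arrays and Hk2 was low on 3 of 4, and the groups overlap in every panel.

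Of the transporter genes, Slc2a1 encodes GLUT1, the widely expressed high-affinity transporter, and Slc2a2 encodes GLUT2, the low-affinity transporter of rodent beta cells and liver. Slc2a1 (probe set TC0400001325.mm.2) read 9.06, 8.72, 8.84 and 9.14 in IDE-KD cells, against 8.66, 9.11, 8.99 and 8.96 in control cells. Both groups cover nearly the same range, and the means of 8.94 ± 0.19 in IDE-KD and 8.93 ± 0.19 in control cells (SD, n = 4 each) differed by 0.012 (SE 0.14, 95% confidence interval -0.29 to 0.32, exact two-sided permutation p = 0.943), and by 0.0018 without IDE-KD replicates 1 and 3. Slc2a2 (TC0300000180.mm.2) gave a low signal, below the median array control row on all 8 arrays: 3.07, 2.19, 2.86 and 2.66 in IDE-KD cells, against 2.85, 2.77, 2.72 and 2.72 in control cells. The IDE-KD arrays lay on both sides of the control arrays, 2 above all of them and 2 below. The difference of -0.07 (SE 0.17, 95% confidence interval -0.43 to 0.29) was within the spread between replicates (exact two-sided permutation p = 0.8), but single arrays moved it. It was 0.099 without IDE-KD replicate 2, the array with the lowest value, and -0.19 without IDE-KD replicate 1, the array with the highest. Without IDE-KD replicates 1 and 3 it was -0.34 (unadjusted p 0.0528 in limma).

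Of the other transporter genes, 6 of 14 were higher and 8 lower, and 0 passed the adjusted or the unadjusted threshold. Their median difference was -0.03, and 6 of 14 were under that control row level in both groups. Slc2a3, the gene of the high-affinity transporter GLUT3, read 8.52 ± 0.09 in IDE-KD and 8.62 ± 0.11 in control cells (SD, n = 4 each), a difference of -0.10 (SE 0.12). Slc2a4, which encodes the insulin-responsive transporter GLUT4, was at a low signal, with 4.28 ± 0.16 in IDE-KD and 4.36 ± 0.12 in control cells (difference -0.08, SE 0.13). The smallest p values of this list belonged to Slc2a7 (0.22, SE 0.15) and to the sodium-coupled transporter family genes Slc5a4a (-0.23, SE 0.16) and Slc5a1 (-0.19, SE 0.15), and all 3 were at low signals throughout.

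Of the hexokinase genes, Hk1 is the broadly expressed form and Hk2 the inducible form, prominent in muscle, fat and many tumours, and both enzymes bind to mitochondria. Hk2 (TC0600002550.mm.2) read 5.70, 5.66, 5.44 and 5.90 in IDE-KD cells, against 6.004, 6.03, 5.89 and 5.94 in control cells. On 3 of 4 IDE-KD arrays it lay below all control arrays, and on replicate 4 it lay among them. The means were 5.68 ± 0.19 in IDE-KD and 5.97 ± 0.06 in control cells (SD, n = 4 each), and differed by -0.29 (SE 0.12), which is 1.22-fold lower. The 95% confidence interval was -0.56 to -0.02. The unadjusted p was 0.0373, rank 739 of 22142, and the exact two-sided permutation p was 0.0571. Hk2 read -0.21 without IDE-KD replicate 3, the array with its lowest value, and -0.18 without IDE-KD replicates 1 and 3. With 1 array left out, its unadjusted p in limma was 0.0150 to 0.113, under 0.05 only without control replicate 3 or without IDE-KD replicate 4.

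Hk1 (TC1000002256.mm.2) read 9.28, 9.07, 9.11 and 9.03 in IDE-KD cells, against 9.25, 9.22, 9.32 and 9.03 in control cells. The ranges overlap almost in full, and the difference of -0.08 (SE 0.12, 95% confidence interval -0.34 to 0.18) had an exact two-sided permutation p of 0.429. It was -0.15 without IDE-KD replicates 1 and 3. Whether the 2 hexokinase genes differed from each other in their change was tested on the value of Hk2 minus Hk1 within an array, which averaged -3.45 ± 0.23 in IDE-KD and -3.24 ± 0.14 in control cells (SD, n = 4 each). The difference of -0.21 (95% confidence interval -0.55 to 0.13) did not pass (exact two-sided permutation p = 0.2, adjusted p 0.3 over the 3 gene pairs compared in this way), and it was -0.03 without IDE-KD replicates 1 and 3. The same exact permutation test gave p = 0.743 (adjusted p 0.743) for Slc2a2 minus Slc2a1. The difference of this pair was -0.08 (95% confidence interval -0.55 to 0.39), and -0.34 without IDE-KD replicates 1 and 3.

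G6pc2 encodes the islet glucose-6-phosphatase catalytic subunit, which opposes glucose phosphorylation. Its probe set (TC0200001003.mm.2) read 8.01, 8.77, 7.90 and 8.45 in IDE-KD cells, against 8.71, 8.46, 8.13 and 8.18 in control cells. The values were scattered, with IDE-KD arrays 1 and 3 below all control arrays and array 2 above all of them. The difference of -0.09 (SE 0.20, 95% confidence interval -0.51 to 0.34, exact two-sided permutation p = 0.714) was within the replicate spread and had the opposite sign, 0.24, without IDE-KD replicates 1 and 3.

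Among the other genes of glucose phosphorylation and its reversal, the median was 0.17, with 5 of 7 measured higher and 2 lower, and 0 passed the adjusted threshold. Hkdc1, a hexokinase family gene, was the 1 at an unadjusted p under 0.05, with 4.76 ± 0.15 in IDE-KD and 4.24 ± 0.58 in control cells (SD, n = 4 each) and a difference of 0.51 (SE 0.23, exact two-sided permutation p = 0.0571). Control replicate 4, at 3.40, was far below the other control arrays, and without it the difference was 0.23. Hk3, another hexokinase gene, read 5.68, 5.44, 6.29 and 5.93 in IDE-KD cells, against 5.49, 5.46, 5.57 and 5.61 in control cells (difference 0.30, SE 0.17), and 0.15 without IDE-KD replicate 3. G6pc3, the broadly expressed glucose-6-phosphatase gene, read 0.17 (SE 0.12), and Gckr, the gene of the glucokinase regulatory protein, 0.21 (SE 0.20) at levels of 3.26 in IDE-KD and 3.05 in control cells, below the median array control row.

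Past phosphorylation, 8 of 18 measured genes of glycolysis were higher and 10 lower (median -0.04), and 0 passed the adjusted or the unadjusted threshold. Their differences ran from -0.26 to 0.17. In the array values, the 95% confidence interval left out a 1.5-fold change for all 18, as for 83.6% of all probe sets. Pgam2 among them was at a low signal, below the median array control row. The smallest p values belonged to the pyruvate kinase gene Pklr, a known ChREBP target in liver, at -0.26 (SE 0.13), with 6.04 ± 0.13 in IDE-KD and 6.30 ± 0.19 in control cells (SD, n = 4 each), to the lactate dehydrogenase gene Ldhb at -0.22 (SE 0.14) and to the phosphoglycerate mutase gene Pgam2 at 0.17 (SE 0.18). Ldhb was -0.13 without IDE-KD replicate 1, and Pgam2 ran from 0.062 without IDE-KD replicate 4 to 0.35 without IDE-KD replicate 2.

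Pdk1 (TC0200001047.mm.2), whose kinase phosphorylates and so inhibits pyruvate dehydrogenase, read 6.66, 6.72, 6.33 and 6.93 in IDE-KD cells, against 6.42, 6.70, 6.18 and 6.22 in control cells. On 2 IDE-KD arrays, 2 and 4, it lay above all control arrays, and the other two lay within the control range. The difference of 0.28 (SE 0.16, 95% confidence interval -0.07 to 0.62) had an unadjusted p of 0.105 and an exact two-sided permutation p of 0.171. It was 0.19 without IDE-KD replicate 4 and 0.44 without IDE-KD replicates 1 and 3, so that the fitted size depended on which arrays were kept. Its unadjusted p in limma was 0.0275 without IDE-KD replicate 3, 0.0325 without control replicate 2 and 0.0259 without IDE-KD replicates 1 and 3. The other kinase genes of the family read -0.18 (SE 0.14) for Pdk2, 0.00032 (SE 0.23) for Pdk3 and -0.015 (SE 0.22) for Pdk4. Pdk4 was at a low signal, 3.19 in IDE-KD and 3.20 in control cells, below the median array control row. Of 13 measured genes of pyruvate entry, Pdk2, Pdk3 and Pdk4 included, the median was -0.03, with 4 higher and 9 lower, and 0 passed either threshold. Pdpr, the gene of the pyruvate dehydrogenase phosphatase regulatory subunit, at -0.20 (SE 0.13), and Pdhx, that of a structural subunit of the complex, at -0.10 (SE 0.16), were with Pdk2 the members with the smallest p.

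**Figure D2:**
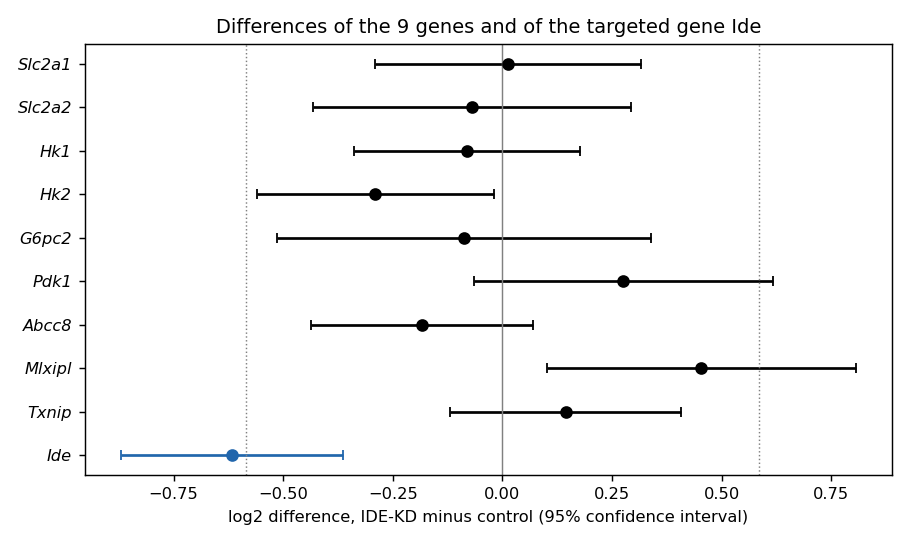
Log2 differences, IDE-KD minus control, of the 9 genes (black) and of the targeted gene Ide (blue), with 95% confidence intervals from limma over 4 arrays against 4. Dotted lines mark 1.5-fold changes. The intervals of Hk2, Mlxipl and Ide leave out 0 before adjustment over all probe sets, and the intervals of Mlxipl and Pdk1 reach past 1.5-fold.

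Abcc8 encodes SUR1, the sulfonylurea receptor, which with the pore subunit Kir6.2 (Kcnj11) forms the ATP-sensitive potassium channel of islet cells. Abcc8 (TC0700003031.mm.2) read 8.33, 8.13, 8.21 and 8.07 in IDE-KD cells, against 8.22, 8.37, 8.47 and 8.42 in control cells. On 3 of 4 IDE-KD arrays it lay below all control arrays, and replicate 1 lay within the control range. The means of 8.19 ± 0.11 in IDE-KD and 8.37 ± 0.11 in control cells (SD, n = 4 each) differed by -0.18 (SE 0.12, 95% confidence interval -0.44 to 0.07), with an unadjusted p of 0.143 and an exact two-sided permutation p of 0.0571. Leaving out 1 array at a time gave -0.23 to -0.15, and leaving out IDE-KD replicates 1 and 3 gave -0.27.

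Kcnj11 read 7.25, 6.78, 7.06 and 7.06 in IDE-KD cells, against 7.23, 7.34, 7.15 and 7.10 in control cells. As with Abcc8, 3 of 4 IDE-KD arrays lay below all control arrays and replicate 1 did not. Its difference was -0.17 (SE 0.13, exact two-sided permutation p = 0.171), and it was -0.08 without IDE-KD replicate 2 and -0.28 without IDE-KD replicates 1 and 3. The paralogous subunit genes Kcnj8, for the pore subunit Kir6.1, and Abcc9, for the receptor SUR2, read 0.11 (SE 0.17) and -0.06 (SE 0.16). Abcc9 was at a low signal, 3.25 in IDE-KD and 3.31 in control cells, below the median array control row. Kcnj8, at 4.59 in IDE-KD and 4.48 in control cells, was near that row. With all 8 arrays, the median of the 3 channel genes is the value of Abcc9. Of the 3 channel genes beside Abcc8, 1 was higher and 2 lower, with 0 past either threshold.

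Mlxipl encodes ChREBP, the transcription factor that is activated by glucose metabolites. Its probe set (TC0500001575.mm.2) read 4.48, 3.86, 4.46 and 4.48 in IDE-KD cells, against 3.88, 4.13, 3.74 and 3.72 in control cells. Replicates 1, 3 and 4 of IDE-KD lay close together above all control arrays, while replicate 2 lay inside the control range. The means of 4.32 ± 0.31 in IDE-KD and 3.87 ± 0.19 in control cells (SD, n = 4 each) were both below the median array control row. The difference of 0.45 (SE 0.16), which is 1.37-fold higher, had a 95% confidence interval of 0.10 to 0.81, an unadjusted p of 0.0156, rank 296 of 22142, and an exact two-sided permutation p of 0.0857. It was 0.61 without IDE-KD replicate 2 and 0.30 without IDE-KD replicates 1 and 3, where the unadjusted p was 0.143. With 1 array left out, its unadjusted p in limma was 0.000838 to 0.0451, and the adjusted p did not pass in any of the 8 repeats.

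Txnip encodes the thioredoxin-interacting protein, an arrestin family protein that restrains glucose uptake, and its promoter carries the paired E-box pattern shown above. Txnip (TC0300000949.mm.2) read 8.57, 8.59, 8.55 and 8.79 in IDE-KD cells, against 8.32, 8.41, 8.55 and 8.64 in control cells. Replicate 4 of IDE-KD alone lay above all control arrays. The difference of 0.14 (SE 0.12, 95% confidence interval -0.12 to 0.41) was within the replicate spread (exact two-sided permutation p = 0.2), and it was 0.089 without IDE-KD replicate 4, 0.092 without control replicate 1 and 0.21 without IDE-KD replicates 1 and 3. On IDE-KD replicate 2, where Mlxipl was low, Txnip read 8.59, between its values on the other IDE-KD arrays. The value of Txnip minus Mlxipl within an array averaged 4.30 ± 0.30 in IDE-KD and 4.61 ± 0.30 in control cells (SD, n = 4 each). That difference of -0.31 (95% confidence interval -0.83 to 0.21) did not pass (exact two-sided permutation p = 0.2, adjusted p 0.3 over the 3 pairs), and it was -0.09 without IDE-KD replicates 1 and 3.

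Genes around these 2 regulators were spread on both sides. A list of 17 measured genes held partners and targets of ChREBP and MondoA. It also held the thioredoxin genes Txn1 and Txn2, which are neither. Its median was 0.03, with 9 higher and 8 lower, and 0 passed the adjusted or the unadjusted threshold. Txn1, at 0.03, was itself the median, and Txn2 was at 0.12, so the sign of the median rests on these added genes. Mlx, the shared partner, read 8.38 ± 0.16 in IDE-KD and 8.43 ± 0.03 in control cells (SD, n = 4 each; difference -0.06, SE 0.12), and Mlxip, the MondoA gene, 6.80 ± 0.14 in IDE-KD and 6.96 ± 0.22 in control cells (difference -0.16, SE 0.14). Arrdc4, an arrestin family gene that responds to glucose like Txnip in many cells, read 0.06 (SE 0.16). Of the targets known from liver, Thrsp was at 0.29 (SE 0.15), at levels of 4.10 in IDE-KD and 3.81 in control cells below the median array control row, Fasn, the gene of fatty acid synthase, was at -0.21 (SE 0.14), and Pklr, named above, at -0.26 (SE 0.13). Thrsp was 0.15 without IDE-KD replicate 4.

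**Figure D3:**
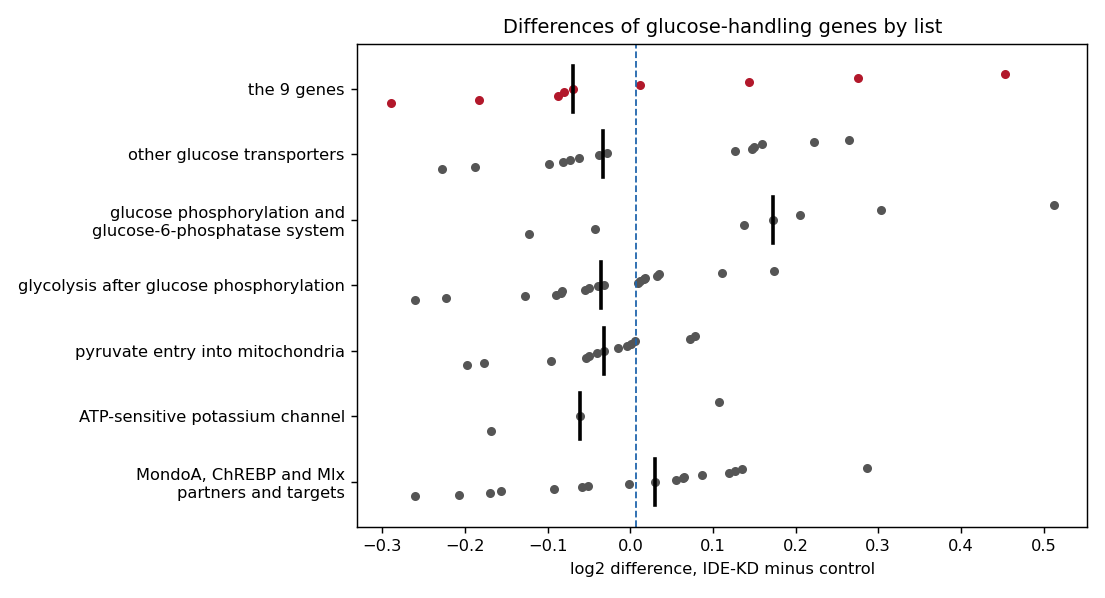
Log2 differences, IDE-KD minus control, of the 9 genes (red) and of 6 lists of other glucose-handling genes (grey), 1 point per gene. Black bars mark list medians, which run from -0.07 to 0.17, and the dashed line marks the median of all 22142 probe sets. Genes lie on both sides of 0 in every list, and Pklr stands in 2 lists.

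The 6 lists named 80 gene symbols, of which 71 were measured. Of the 71, 33 were higher and 38 lower, 0 passed the adjusted threshold and 1 the unadjusted one, beside 4.59% of all probe sets. Their median difference of -0.015 stood beside 0.0074 for all tested probe sets, and the groups stood apart without overlap in 0 of the 71 genes. The other 9 symbols were not analysed here, among them G6pc1, a newer symbol of the measured gene G6pc.

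Single arrays moved the list medians, so their size and most of their signs were not stable. With 1 array left out, the median ran from -0.07 to 0.019 for the other transporters and from 0.080 (without control replicate 3) to 0.24 (without IDE-KD replicate 1) for phosphorylation and its reversal. For glycolysis it was lowest, at -0.08, when control replicate 1 was dropped and highest, at 0.034, when control replicate 2 was. For pyruvate entry it ran from -0.17 (without IDE-KD replicate 2) to 0.093 (without IDE-KD replicate 1). For the 3 channel genes it ran from -0.12 to 0.041. For the ChREBP and MondoA list it ran from -0.05 (without IDE-KD replicate 2) to 0.079 (without control replicate 2). Without IDE-KD replicates 1 and 3 the medians were -0.07 for the other transporters, 0.16 for phosphorylation and its reversal and 0.049 for glycolysis. They were 0.17 for pyruvate entry, -0.11 for the channel genes and 0.082 for the ChREBP and MondoA list. Of the 25 genes of these lists named here, 24 moved by over 1.5 times or turned sign when some 1 array was left out, Pklr being the exception.

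The plot of differences with each array left out shows how far single arrays moved each of the 9 genes. Every repeat shares most of its arrays with the full set, so a sign that held does not make a difference stable in size. The sign held in all 8 repeats for Hk1, Hk2, Pdk1, Abcc8, Mlxipl and Txnip, and it turned at least once for Slc2a1, Slc2a2 and G6pc2.

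**Figure D4:**
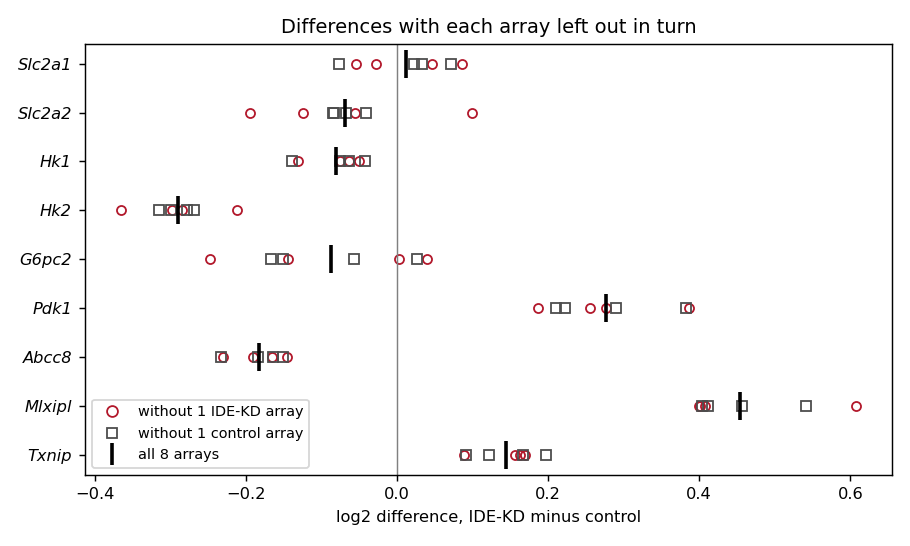
Log2 differences, IDE-KD minus control, of the 9 genes with all 8 arrays (black bars), without 1 IDE-KD array (red circles) and without 1 control array (grey squares). Mlxipl ran from 0.40 to 0.61 and Hk2 from -0.37 to -0.21, while the values of Slc2a1, Slc2a2 and G6pc2 lay on both sides of 0.

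Among 11408 other named probe sets with a mean at or above the median array control row, those whose pattern over the 8 arrays was most like that of Mlxipl were Gpr37l1 (Pearson r = 0.97) and Fam83h (r = 0.96). For Txnip they were Atat1 (r = 0.96) and Fchsd2 (r = 0.94) among 11407. These correlations are a description over 8 arrays, picked as the highest of all those compared. With Mlxipl 12 probe sets exceeded 0.9 and with Txnip 11, and how many would do so by chance was not tested.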

How the data were processed

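Total RNA was hybridised to 8 Clariom S arrays, 4 per group. The authors deposited log2 expression values, 1 per probe set and array. RMA, oligo and limma appear in the submitters' processing notes with neither version nor role, and no source used here gives the probe sets' genome build. RMA in its usual form equalises the arrays' distributions, so a change in all RNA would be removed, and it compresses low signals. Values were used as deposited. Of 29129 rows, 22142 transcript clusters were tested. The 6923 array control rows and 64 unplaced rows were not. Gene symbols came from the platform table.

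IDE-KD minus control was fitted over all 22142 rows in R 4.3.3 with limma 3.58.1 (lmFit, eBayes) and no covariates, and p-values were adjusted by Benjamini-Hochberg with a threshold of 0.05. The fit was tested on simulated data. Single genes were also compared by an exact permutation test, whose smallest p for 4 against 4 arrays is 0.0286. Gene pairs were compared by that test, and their confidence intervals were t intervals with the variance pooled over both groups. Context genes named were the 3 with the smallest p of each list, and a fixed set. Members, lists and tests were chosen with earlier results of these data known. Alternatives were array weights, another variance prior, a replicate block, 2 scalings, a filter on dim rows and leaving out arrays. Sequences are from RefSeq. Pattern likeness was Pearson's r.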

Additional observations from a re-analysis of the deposited data

Results flagged for a closer look

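Among the 4 arrays of a group, 1 array stood far from the other three for 4 of the 70 combinations of gene and group examined, and chance alone gives about 5% of such groups. Mlxipl on IDE-KD replicate 2 read 3.86, against 4.46 to 4.48 on the other IDE-KD arrays. Txnip on IDE-KD replicate 4 read 8.79, against 8.55 to 8.59 on the other IDE-KD arrays. Slc5a4a on IDE-KD replicate 1 read 2.21, against 2.82 to 2.90, at a low signal. Ldhb on control replicate 2 read 8.36, against 7.98 to 8.01 on the other control arrays.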

How the results depend on the processing

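Under all 15 alternatives limma called 0 probe sets at an adjusted p under 0.05. The fitted signs of Hk1, Hk2, Pdk1, Abcc8, Mlxipl, Txnip and Ide held in the 14 that were read for single genes. Among these, the trended and robust prior and the replicate block cannot change a difference, so the signs could not turn under them. Signal near background limits Mlxipl and Slc2a2, and 4 arrays a group limit all values. The count of the 9 genes at an unadjusted p under 0.05, 2 as reported, was 1 with array weights, with the trended and robust prior, with dim rows removed and without IDE-KD replicates 1 and 3, and 1 to 2 with 1 array left out. It was Pdk1, not Mlxipl or Hk2, without IDE-KD replicates 1 and 3, and Mlxipl and Pdk1 without IDE-KD replicate 3 or without control replicate 2. The same count over all probe sets was 522 with dim rows removed (fewer were tested), 1749 without IDE-KD replicates 1 and 3 (an alternative chosen after seeing the data) and 788 to 1452 with 1 array left out.

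The labels do not say whether replicate numbers are pairs, and they were not treated as pairs. Deviations of arrays with the same number correlated at 0.088 to 0.13 over probe sets. Those of arrays with different numbers correlated at -0.23 to 0.21, most of them negative, and IDE-KD replicate 1 correlated best with control replicate 3. These values do not settle whether the numbers are pairs. With a replicate block the counts were 0 at the adjusted threshold and 1253 at an unadjusted p under 0.05, 2 of them among the 9 genes.

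Signs of single genes and gene pairs turned as follows, and the cause was not tested. With array weights Pdk4 read 0.0054. With array medians subtracted Slc2a1 read -0.0013 and Pdk3 -0.013. Without IDE-KD replicates 1 and 3, G6pc2 read 0.24, Pdhx 0.11, Kcnj8 -0.11 and Mlx 0.082. With dim rows removed the median of the other transporters was 0.049. With 1 array left out, the ranges were -0.077 to 0.086 for Slc2a1, -0.19 to 0.10 for Slc2a2, -0.25 to 0.040 for G6pc2, -0.20 to 0.071 for Pdhx, -0.21 to 0.041 for Abcc9, -0.056 to 0.18 for Arrdc4, -0.17 to 0.21 for Pdk3, -0.12 to 0.17 for Pdk4, and -0.17 to 0.036 for Slc2a2 minus Slc2a1. List medians turned too: with 1 array left out, those of the other transporters (-0.07 to 0.019), glycolysis (-0.08 to 0.034), pyruvate entry (-0.17 to 0.093), the 3 channel genes (-0.12 to 0.041) and the ChREBP and MondoA list (-0.05 to 0.079), and without IDE-KD replicates 1 and 3 those of glycolysis (0.049) and pyruvate entry (0.17).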
